A study of Mus musculus with 4 samples.

Results

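The mRNAs Mapre3, Txnl4a, Dynll2, Chchd3 and Mapkapk5 were followed in 2 mouse muscles. They are 5 of the 11237 gene symbols listed for heart or tibialis anterior, and all 5 were listed for both tissues. They were chosen by symbol, with results known, because their coding sequences carried many ribosome-protected fragments (RPF) per unit of RNA or because that ratio was much larger in heart. Those ratios are therefore given as descriptions. The collective name of the set, the mRNAs of highest efficiency in both muscles, held for Mapre3 and Dynll2. For Txnl4a, which ranked 14 of 10680 genes in heart and 125 of 10029 in tibialis anterior, the name held less closely. It did not hold for Chchd3, which was high in heart alone, or for Mapkapk5, which was below the median gene in both tissues.

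Heart and tibialis anterior (TA), a fast hindlimb muscle, were taken from male C57BL/6J mice 10 weeks of age, with no genetic change or treatment named in the labels. Whole frozen tissue was lysed in cycloheximide, which stalls ribosomes on mRNA, and part of the lysate gave total RNA depleted of ribosomal RNA while the rest was digested with RNase I to leave footprints. Each tissue had 1 RPF and 1 RNA library, so the study had 4 libraries. With 1 sample in a group nothing could be tested, so sizes and counting intervals are given in place of p-values.

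A translating ribosome shields a short stretch of mRNA from nuclease, so sequencing these fragments shows where and how heavily an mRNA is occupied. The ratio of RPF to RNA on the coding sequence is called translational efficiency. It reflects how many ribosomes sit on an mRNA, and it does not separate frequent initiation from slow elongation. Mapre3 encodes EB3, an end-binding protein that tracks the growing plus ends of microtubules. Dynll2 encodes a small LC8 light chain of cytoplasmic dynein and of myosin V, which also binds many other partners as a dimer. Txnl4a encodes the thioredoxin-like 15 kD protein of the U5 small nuclear ribonucleoprotein, part of the spliceosome. Chchd3 encodes a subunit of MICOS, the complex that holds the crista junctions of the inner mitochondrial membrane and that matters in tissues rich in cristae such as heart. Mapkapk5 encodes MK5 (PRAK), a protein kinase activated by p38 and by the atypical kinases ERK3 and ERK4.

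Initiating ribosomes select the start codon, and the bases around it are shown for 4 of the 5 mRNAs, with the start codon in capitals. The sequences run 5′ to 3′ from 10 bases before the start codon over 30 bases in all, and were read from the GENCODE M21 transcript (GRCm38) that carries the RefSeq accession of the deposited row.
Mapre3: actctggggtATGgctgtcaatgtgtactc
Dynll2: acgtgtcacgATGtctgaccggaaggcagt
Chchd3: agcaggagccATGggcgggaccgctagcac
Mapkapk5: ccagcggagcATGtcggaggacagcgacat
All 4 have a purine 3 bases before the start codon, as did 86.8% of 10568 listed transcripts. Mapre3 and Chchd3 have a G directly after it and Dynll2 and Mapkapk5 do not. A G stood there in 53.1% of those transcripts. No ATG lies upstream of the start codon in the GENCODE 5-prime UTR of Mapre3, Txnl4a, Dynll2 or Chchd3, whereas 51.8% of the 10568 transcripts have at least 1. Mapkapk5 has 4, each followed by a stop codon in frame within the 5-prime UTR, and the longest of these upstream frames is 98 codons. The GENCODE 5-prime UTR is longer than the deposited one for Mapre3 (265 nt against 150) and Chchd3 (180 against 72), and differs by 13 nt or less for the other three.

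The coding parts were short in 4 of the 5 mRNAs. The annotated coding sequence has 270 nt in Dynll2 (89 codons before the stop), 429 in Txnl4a (142 codons), 684 in Chchd3 (227 codons) and 846 in Mapre3 (281 codons). Mapkapk5 has 1422 nt (473 codons), near the median deposited coding length of 1431 nt in heart. Across all genes shorter coding sequences had higher efficiency (Spearman rho -0.39 in heart over 10680 genes and -0.35 in TA over 10029, across genes that share a library and are not replicates). Mapre3 and Mapkapk5 lie on chromosome 5 with 7 and 14 exons in these models, Chchd3 on chromosome 6 with 8, Dynll2 on chromosome 11 with 3 and Txnl4a on chromosome 18 with 4.

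Reads of a near copy could inflate or dilute a short coding sequence, so every 30-base window of the coding sequences was looked for in the other GENCODE transcripts. None of the 817 windows of Mapre3, 241 of Dynll2 or 655 of Chchd3 occurred in another gene. For Txnl4a 126 of 400 windows also occurred in Gm16286, and for Mapkapk5 1360 of 1393 occurred in Adam1a, most of them also in Gm42878. These 3 partners are annotated over the same locus as their mRNA on the same strand, and no window of either mRNA occurred outside its locus. The sources used here do not say how reads of overlapping models were assigned, and values of Txnl4a and Mapkapk5 are less certain on this count.

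Dynll2 has a close paralog, Dynll1, of the same coding length. Their coding sequences are identical at 219 of 270 positions (81.1%). The longest stretch they share without a difference is 16 nt, shown in capitals within coding bases 79 to 108.
Dynll2: caggccaTGGAGAAGTACAACATagagaag
Dynll1: caggcgtTGGAGAAGTACAACATcgagaag
That stretch is shorter than the footprints that were cut from the gel, so a whole footprint cannot match both coding sequences without a mismatch. How many mismatches the mapping allowed is not stated. Of the Dynll1 windows, 110 of 241 did occur in transcripts of other genes.

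The libraries held 28120000 coding RPF reads and 9280000 coding RNA reads in heart, and 28520000 and 16050000 in TA, as recovered from the deposited values. Values are RPM, scaled so that the coding values of a library summed to between 993727 and 998101 with the UTR values on top. On this scale 1 RPM was between 9.34 and 28.6 reads. The labelled tissues had their defining markers: 8 of 8 heart muscle markers were listed in heart and took 9.52% of its coding RNA against 0.0019% in TA. All 8 fast skeletal markers were listed in TA and took 19.1% of its coding RNA against 0.0152% in heart. Markers of endothelium took 0.101% in heart and 0.0234% in TA, those of macrophages and leukocytes 0.0176% and 0.00299%, and those of fibroblasts 0.143% and 0.142%. Red cell markers (2 of 3 listed) took 1.25% in heart and 0.0472% in TA. Smooth muscle markers (3 of 4 listed in each) took 0.025% and 0.00832%, and nerve and Schwann cell markers (3 of 6 listed in heart, 5 of 6 in TA) 0.00196% and 0.00265%. In whole tissue, fewer cells of a type and less RNA per cell cannot be told apart, and the part of cells other than muscle fibres in the results below was not tested.

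Efficiency below is the log2 ratio of coding RPF to coding RNA, each with 0.1 RPM added, minus the median of all genes with at least 1 RPM of coding RNA in that tissue. The median gene had 0.737 RPF per RNA in heart and 0.835 in TA. Intervals are 95%, exact and conditional on the reads, and cover counting error only. Sequencing reads without molecular identifiers are not independent molecules, so the true uncertainty is wider.

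Mapre3 carried many footprints for its RNA level in both muscles. It had 100 RPM of coding RPF against 11.9 RPM of RNA in heart, and 107 RPM against 10.9 RPM in TA. That is 8.45 footprint reads per RNA read in heart (6.99 to 10.3) and 9.78 in TA (8.40 to 11.5). The intervals of the 2 tissues overlap. Relative to the median gene the efficiency was 3.51 on the log2 scale in heart (rank 10 of 10680 genes) and 3.54 in TA (rank 14 of 10029). Over genes whose RNA was 10 RPM or more it ranked 2 of 7579 in heart and 5 of 5997 in TA. Per kilobase of coding sequence its RNA ranked 5566 of 10791 in heart and its RPF 846, and in TA its RNA ranked 4206 of 10352 and its RPF 601. Just 111 RNA reads in heart and 176 in TA stand behind these ratios, which is what sets the width of their intervals.

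Dynll2 resembled Mapre3 in efficiency at higher levels. The light chain mRNA had 199 RPM of coding RPF and 26.8 RPM of RNA in heart, and 99.8 RPM and 11.8 RPM in TA. The ratio of RPF to RNA was 7.43 in heart (6.54 to 8.46) and 8.46 in TA (7.30 to 9.85). The intervals of the 2 tissues overlap. Relative to the median gene of each tissue the efficiency was 3.33 on the log2 scale in both, with rank 17 of 10680 in heart and 23 of 10029 in TA. Per kilobase of coding sequence Dynll2 ranked 165 of 10791 in heart for RPF and 900 for RNA. With the 3 parts of the mRNA summed its efficiency was 1.81 in heart and 1.26 in TA, so the tissues then differed by 0.56. With the trend in coding length taken off the efficiency was 2.41 and 2.49.

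Txnl4a, the U5 spliceosome protein, was high in both tissues and higher in heart. It had 94.97 RPM of RPF and 11.9 RPM of RNA in heart, and 25.9 RPM and 5.96 RPM in TA. The ratio was 7.99 in heart (6.61 to 9.75) and 4.34 in TA (3.50 to 5.42), intervals that do not overlap. The efficiency was 3.43 in heart (rank 14) and 2.36 in TA (rank 125). The difference of 1.07 sat just past the 2-fold rule used here, and was 0.89 when neither tissue was centred. With the 3 parts summed the efficiency was 2.52 in heart and 1.24 in TA, and against RNA per kilobase of all 3 parts it was 4.93 and 3.57. With 96 RNA reads in TA, Txnl4a had the fewest reads behind its ratio of the 5 mRNAs.

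Chchd3, the MICOS subunit, was abundant in both muscles and had a high ratio of RPF to RNA in heart alone. Per kilobase of coding sequence its RPF ranked 105 of 10791 in heart and 407 of 10352 in TA. It had 841 RPM of RPF against 339 RPM of RNA in heart, and 133 RPM against 235 RPM in TA. The ratio fell from 2.48 in heart (2.39 to 2.57) to 0.566 in TA (0.541 to 0.592), on 3170 RNA reads or more in each tissue. Heart lay above its median gene at 1.75 (rank 496 of 10680) and TA below its own at -0.56 (rank 6963 of 10029). With each tissue relative to its own median gene the step from heart to TA was 4.96-fold, or 2.31 on the log2 scale. It was 2.13 when neither tissue was centred.

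Mapkapk5, the kinase MK5, was not an mRNA of high efficiency in either muscle. It had 40.6 RPM of RPF and 64.4 RPM of RNA in heart, and 9.02 RPM and 70.7 RPM in TA. The ratio was 0.631 in heart (0.571 to 0.697) and 0.128 in TA (0.111 to 0.146). Its efficiency was -0.22 in heart (rank 6259) and -2.70 in TA (rank 9881 of 10029), so it was close to the median gene in heart and near the bottom of the list in TA. The sign in heart turned to 0.40 with the 3 parts summed and to 0.18 against RNA per kilobase of all 3 parts. With each tissue relative to its own median gene the heart efficiency was 5.55-fold that of TA, or 2.47 on the log2 scale. That difference was 2.29 when neither tissue was centred.

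**Figure D1:**
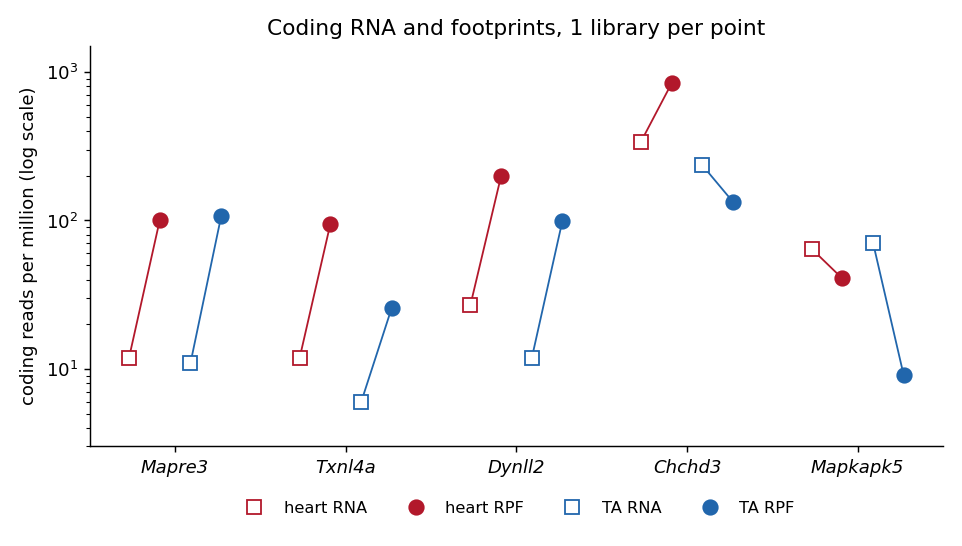
Coding RPM on a log axis for the 5 mRNAs, with RNA as open squares and RPF as filled circles, heart in red and TA in blue, and a line joining the 2 libraries of a tissue; each point is 1 library. The lines rise steeply in both tissues for Mapre3, Txnl4a and Dynll2, rise in heart and fall in TA for Chchd3 (841 RPF against 339 RNA, then 133 against 235), and fall in both for Mapkapk5.

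By the 2-fold rule 4 of the 5 mRNAs were above the median gene in heart, where 16.0% of all genes were, and 3 of 5 in TA, where 15.4% were. Mapkapk5 was at least 2-fold below it in TA, as were 18.7% of genes. These are the ratios the mRNAs were picked on, so the counts only describe the choice.

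**Figure D2:**
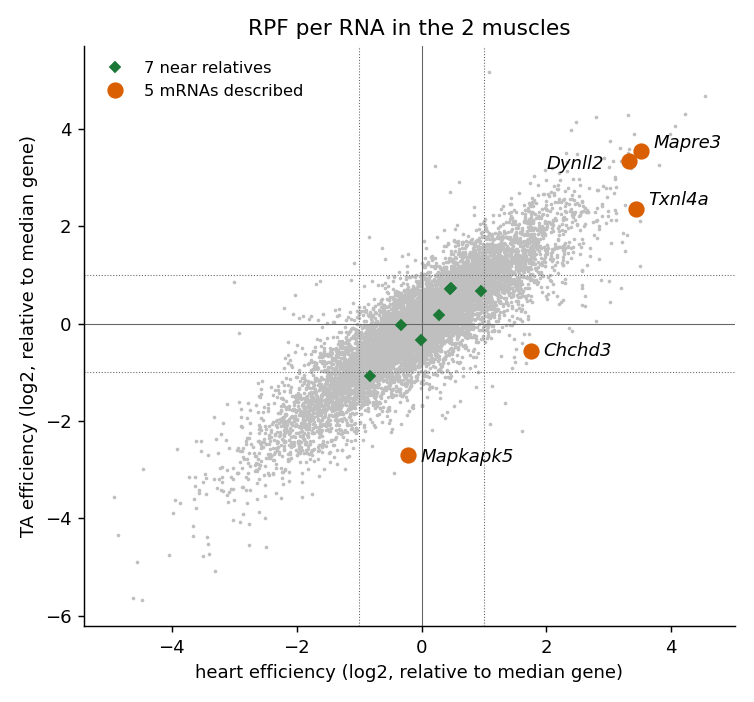
Efficiency in TA against efficiency in heart, both log2 relative to the median gene, for 9635 genes (grey), the 5 mRNAs (orange circles) and 7 near relatives (green diamonds); dotted lines mark 2-fold. Mapre3, Dynll2 and Txnl4a lie in the upper right corner, Chchd3 and Mapkapk5 lie well below the diagonal at 1.75 and -0.22 in heart against -0.56 and -2.70 in TA.

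Dividing by length puts the 5 mRNAs on one scale, and their order differed between RNA and RPF. In heart the RNA level per kilobase of coding sequence was 500 RPM per kb for Chchd3, 101 for Dynll2, 45.5 for Mapkapk5, 28.1 for Txnl4a and 14.1 for Mapre3, with no overlap between the counting intervals of neighbours. The RPF level in heart was 1241 RPM per kb for Chchd3, 753 for Dynll2, 224 for Txnl4a, 120 for Mapre3 and 28.7 for Mapkapk5. Mapkapk5 thus moved from the third place in RNA to the last in RPF. In TA the RNA level was 347 RPM per kb for Chchd3, 49.9 for Mapkapk5, 44.7 for Dynll2, 14.1 for Txnl4a and 13.0 for Mapre3. There the intervals of Mapkapk5 (47.0 to 52.9) and Dynll2 (38.6 to 51.5) overlapped, as did those of Txnl4a (11.4 to 17.2) and Mapre3 (11.2 to 15.1). The RPF level in TA was 378 RPM per kb for Dynll2, 196 for Chchd3, 127 for Mapre3, 61.2 for Txnl4a and 6.37 for Mapkapk5. Dynll2, with far less RNA per kilobase than Chchd3 in TA, had the more RPF per kilobase there.

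Heart and TA were then compared for RNA and RPF separately. Dynll2 RNA was 2.27-fold higher in heart (1.87 to 2.75) and was the 1 mRNA of the 5 past 2-fold, where 35.0% of all genes were. None was 2-fold lower, where 3.88% of genes were. Txnl4a RNA was 1.99-fold higher (1.50 to 2.65) and Chchd3 RNA 1.44-fold (1.38 to 1.51). The intervals of Mapre3 at 1.09 (0.849 to 1.39) and Mapkapk5 at 0.912 (0.825 to 1.01) included equal levels. The median gene was itself 0.70 higher in heart on the log2 scale in RNA and 0.60 in RPF. Relative to it no mRNA of the 5 was 2-fold higher or lower in RNA, where 13.5% and 10.4% of genes were. Mapre3, Mapkapk5 and Chchd3 then stood at -0.58, -0.83 and -0.17, so the direction for Chchd3 turned.

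RPF separated the 5 mRNAs more widely than RNA did. Some of them were chosen for a larger ratio of RPF to RNA in heart, so this describes the choice in part. Chchd3 RPF was 6.32-fold higher in heart (6.11 to 6.55), Mapkapk5 4.50-fold (3.93 to 5.17) and Txnl4a 3.67-fold (3.38 to 3.99). These 3 passed 2-fold, as did 30.1% of all genes, and none of the 5 was 2-fold lower, as were 5.06%. Relative to the median gene the same 3 stood at 2.06, 1.56 and 1.27 on the log2 scale, where 11.9% of genes were 2-fold higher. Dynll2 RPF was 1.99-fold higher (1.90 to 2.08), close to its RNA ratio. Mapre3 RPF was 0.940-fold (0.893 to 0.990), nearly level between the tissues in RPM. Relative to the median gene Dynll2 stood at 0.39 and Mapre3 at -0.69 on the log2 scale.

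The efficiency difference, heart minus TA, combined the 2. It was 2.47 for Mapkapk5 (rank 9 of 9635 genes) and 2.31 for Chchd3 (rank 16). Txnl4a followed at 1.07 (rank 317), and Dynll2 and Mapre3 were at -0.002 and -0.03. At least 2-fold higher efficiency in heart was seen in 3 of these 5 mRNAs and in 4.07% of all genes, and 2-fold lower in 0 of 5 and 2.34%. This contrast also chose some of them, and nothing is read from that count.

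**Figure D3:**
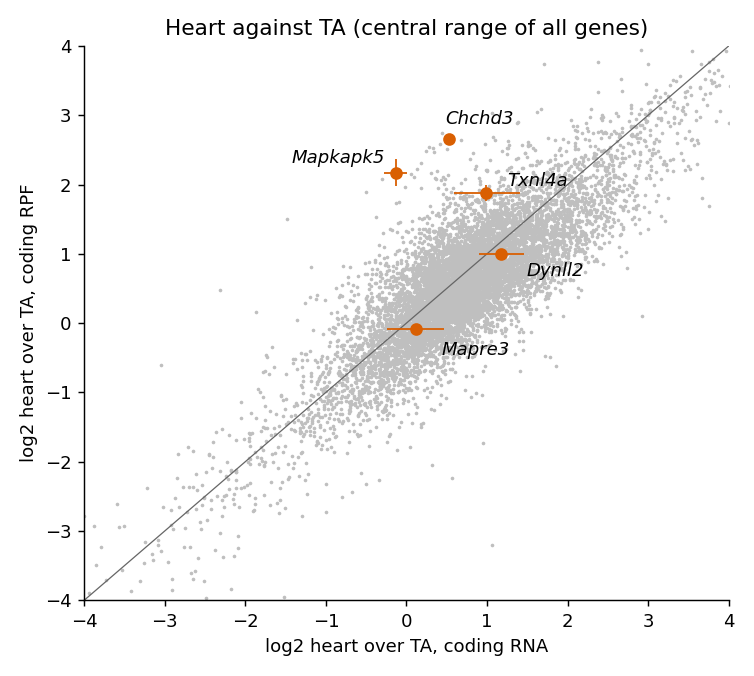
Log2 heart over TA of coding RPF against that of coding RNA, for all genes in the central range (grey) and the 5 mRNAs (orange) with 95% counting intervals; on the diagonal both change alike. Dynll2 and Mapre3 lie on the diagonal within their intervals, while Chchd3 (0.53 in RNA, 2.66 in RPF) and Mapkapk5 (-0.13, 2.16) lie far above it.

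The untranslated parts were not used to choose the mRNAs, but coding RPF and coding RNA were. The percents below divide by coding density, so they are not independent of the choice. Read density there is given per kilobase as a percent of the density on the same mRNA's coding part, beside the median of all genes with a part of at least 50 nt and at least 1 RPM of coding RNA. In RPF the 5-prime UTR density of the median gene was 23.4% of coding in heart and 15.7% in TA. Mapre3 and Txnl4a had almost no footprints in their 5-prime UTRs. Mapre3 had 1 read in heart and 2 in TA (0.223% and 0.367% of coding density), beside 2835 and 3053 coding reads. Txnl4a had 6 and 4 reads (0.663% and 1.62%). Their 5-prime UTR RNA was also thin, at 1 and 4 reads for Mapre3 and 10 and 4 for Txnl4a, so a ratio of RPF to RNA within that part cannot be given with any precision. In each tissue 4 of the 5 mRNAs lay below the median gene in 5-prime UTR footprint density as a percent of coding. By construction about as many genes lie above the median as below. The mRNA above it was Dynll2 in heart and Mapkapk5 in TA. Coding RPF enters this percent and also the choice of the mRNAs, so nothing is read from these counts.

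The 5-prime UTR of Dynll2 was heavily occupied in heart and much less so in TA. It carried 75.4 RPM of RPF in heart (2128 reads, rank 77 of 10791 genes for RPF per kilobase of this part) and 5.60 RPM in TA (160 reads). These were 27.3% of all RPF reads of the mRNA in heart and 5.195% in TA. The 5-prime UTR thus had 11.95 RPF per RNA in heart (9.22 to 15.7), above the 7.43 of the coding part, and 2.10 in TA (1.49 to 3.01), below the 8.46 there. The heart to TA ratio was 13.5 for 5-prime UTR footprints (11.5 to 15.9), 1.99 for coding footprints and 2.36 for 5-prime UTR RNA (1.57 to 3.59). Relative to coding, the footprint density of the 5-prime UTR was 33.6% in heart (32.0 to 35.3) and 4.97% in TA (4.21 to 5.83). These stood at percentiles 58.25 and 31.98 of all genes, so relative to coding neither value was extreme within its tissue. The shift between the tissues, 6.76-fold, ranked 41 among 3425 genes with at least 10 such reads in each tissue. Their median was 0.38 on the log2 scale. The RNA density of the same part was alike in the tissues, at 20.9% (15.5 to 27.9) and 20.0% (14.05 to 28.0) of coding. The GENCODE 5-prime UTR of Dynll2 has the deposited length of 298 nt. The deposited tables give 1 sum per part, so where in the UTR these footprints lie was not analysed here. The search for shared windows covered coding sequences only, so copies of this UTR in other transcripts were not looked for.

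Chchd3 and Mapkapk5 changed in the other direction. The heart to TA ratio of their 5-prime UTR footprints was 3.63 for Chchd3 (2.49 to 5.405) and 1.68 for Mapkapk5 (1.06 to 2.69), below the 6.32 and 4.50 of their coding footprints. For Mapkapk5 the 5-prime UTR, 692 nt as deposited, had 53 footprint reads in heart and 32 in TA, or 9.47% (7.04 to 12.5) and 25.4% (17.0 to 36.7) of coding density. The intervals do not overlap. It took 4.42% of the RPF reads of the mRNA in heart and 11.1% in TA. Relative to coding density the 5-prime UTR footprints were 0.573-fold for Chchd3 and 0.373-fold for Mapkapk5 in heart over TA (ranks 3094 and 3335 of 3425). Coding footprints enter these folds and also the choice of both mRNAs, so the folds are descriptions.

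Footprints in 3-prime UTRs were sparse, which is the usual pattern because ribosomes leave at the stop codon. In RPF the density was at most 0.359% of coding in heart and 0.439% in TA for the 4 mRNAs with reads there, where the median gene had 1.04% and 0.490%. Mapkapk5 had 0 reads in its 94-nt 3-prime UTR in both tissues, where 3 reads would be 0.106 RPM in heart and 0.105 RPM in TA. For this short UTR the exact upper bounds were 4.85% and 21.7% of coding density, so its share there was not measurable at this depth. Chchd3 had 17 reads in heart and 14 in TA, a ratio of 1.22 (0.570 to 2.69) against 6.32 on its coding part. For Dynll2 that ratio was 0.731 (0.495 to 1.07).

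RNA over the 3-prime UTR gives a second reading of how much of each mRNA was present. The median gene had a 3-prime UTR RNA density of 74.6% of coding in heart and 79.3% in TA. Mapre3 had 55.7% (40.5 to 76.1) and 66.1% (52.2 to 83.5), Dynll2 66.1% (57.7 to 76.1) and 82.6% (70.8 to 96.8), and Chchd3 73.8% (69.9 to 77.9) and 84.7% (80.8 to 88.8). Txnl4a, with a 3-prime UTR of 3501 nt, had 22.1% (17.4 to 28.1) and 30.8% (24.3 to 39.5), so its RNA was thinner there than on its coding part. None of the 3 mRNAs of high efficiency in both tissues had more RNA per kilobase in the 3-prime UTR than in the coding part. Nor did the median gene in either tissue, so nothing particular to the 3 is read from this. Mapkapk5 had 3 and 2 RNA reads in its short 3-prime UTR (7.48% and 2.56% of coding), at percentiles 2.03 and 0.97 of all genes.

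**Figure D4:**
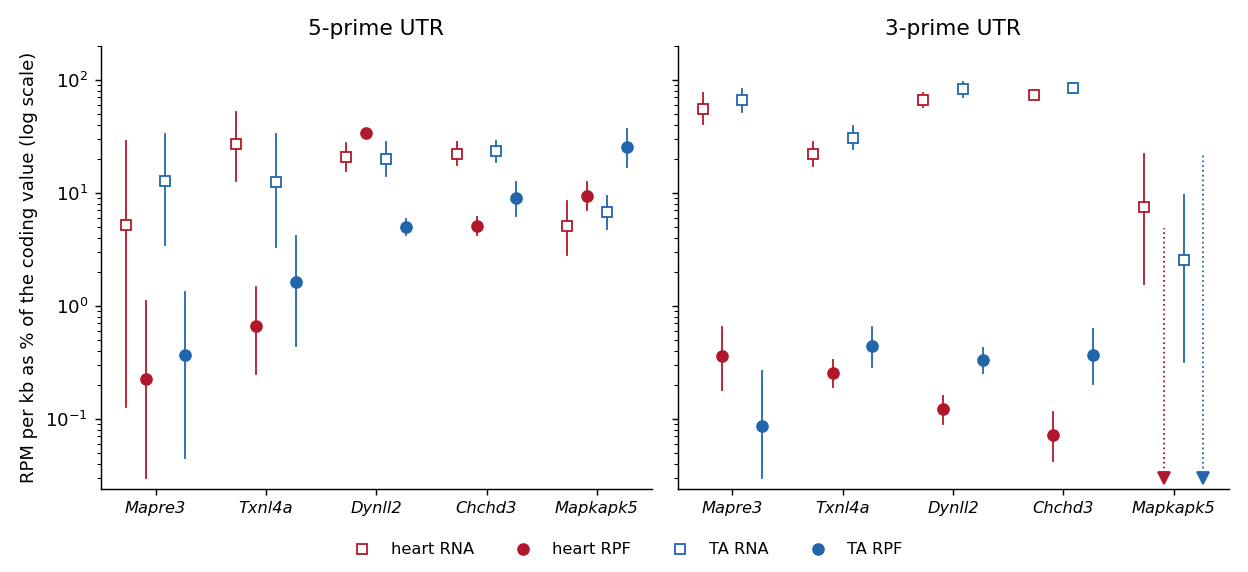
Read density (RPM per kb) of the 5-prime UTR and the 3-prime UTR as a percent of the coding density of the same mRNA, on a log axis, for RNA (open squares) and RPF (filled circles) in heart (red) and TA (blue), with 95% counting intervals; triangles with dotted lines mark 0 reads and the upper bound. Dynll2 footprints in the 5-prime UTR stand at 33.6% in heart and 4.97% in TA, and Mapre3 has under 1% in both.

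The nearest relatives of the 5 mRNAs lay nearer the median gene than Mapre3, Dynll2 and Txnl4a did. Mapre1 and Mapre2, the paralogs EB1 and EB2 of Mapre3, stood at 0.96 and 0.29 in heart and 0.67 and 0.18 in TA. Mapre3 had the least RNA per kilobase of the 3 in heart, 14.1 RPM per kb against 58.1 for Mapre1 and 46.1 for Mapre2, and the most RPF, 120 RPM per kb against 83.4 and 41.5. In TA the RPF contrast was wider, with 127 RPM per kb for Mapre3 against 45.9 and 14.7. Dynll1 encodes the other LC8 light chain and stood at 0.46 in heart and 0.72 in TA, against 3.33 for Dynll2 in each. The RNA of the 2 light chains in TA was nearly equal, 11.1 RPM for Dynll1 and 11.8 for Dynll2, while RPF was 15.3 and 99.8 RPM. Some reads of Dynll1, and likewise of Mapre1 (186 of 778 windows) and Txnl4b (165 of 421), can match other transcripts, so these values are less certain.

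Txnl4b, a Txnl4a paralog linked to splicing, had low levels, 3.75 RPM of RNA in heart and 2.92 in TA, and stood at -0.33 (-0.98 to 0.29) and -0.02 (-0.59 to 0.53). Chchd6, the other MICOS protein of the Chchd3 type, stood at 0.47 in heart and 0.73 in TA, and its difference of -0.25 between tissues lay opposite to the 2.31 of Chchd3. Mapkapk2 and Mapkapk3, kinases downstream of p38, stood at -0.01 and -0.82 in heart and -0.34 and -1.08 in TA. Their efficiency differences of 0.33 and 0.26 were small beside the 2.47 of Mapkapk5. No relative of the 7 was at least 2-fold above the median gene in either tissue, where 16.0% of all genes were in heart and 15.4% in TA. None differed by 2-fold in efficiency between the tissues, where 4.07% of all genes were higher in heart and 2.34% lower. With 7 genes these counts of 0 are not far from the shares of all genes.

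**Figure D5:**
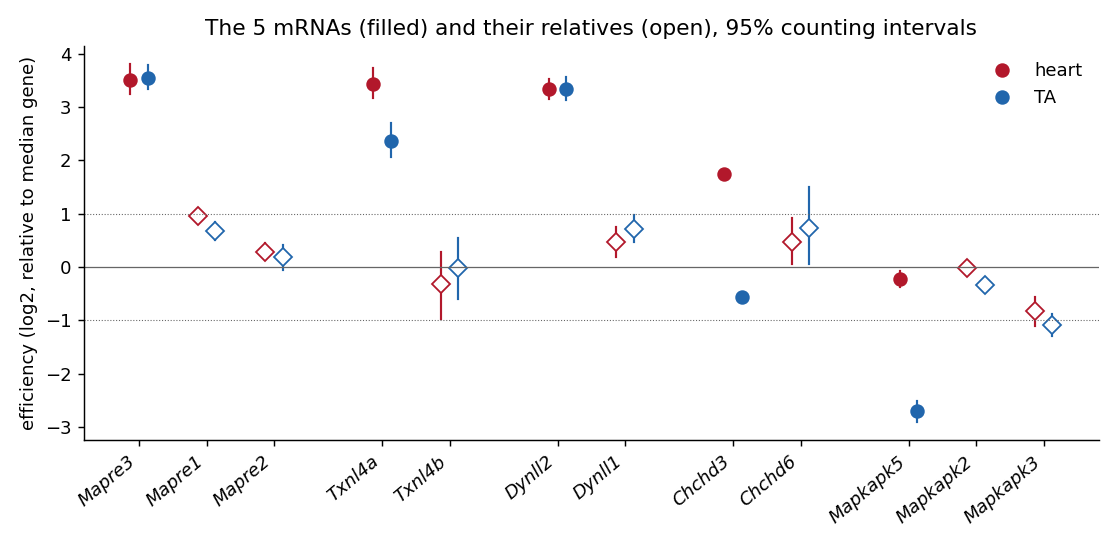
Efficiency (log2 relative to the median gene) in heart (red) and TA (blue) of the 5 mRNAs (filled circles) and their 7 relatives (open diamonds), with 95% counting intervals and dotted lines at 2-fold. Every relative lies within 2-fold of the median gene except Mapkapk3 in TA at -1.08, and the red and blue points of each relative lie close together, unlike those of Chchd3 and Mapkapk5.

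Partners in the same complexes and pathways were described from fixed lists, leaving out the 5 mRNAs themselves. Beside their counts stand the shares of all genes 2-fold above and below the median, 16.0% and 17.8% in heart and 15.4% and 18.7% in TA. For a 2-fold difference in efficiency between the tissues the shares of all genes were 4.07% higher and 2.34% lower in heart. Of 12 other proteins of microtubule plus ends, 1 was at least 2-fold above the median gene in heart and 4 at least 2-fold below, with the same counts in TA and list medians of -0.06 and -0.45. Dctn1, the large dynactin subunit, was highest at 1.10 in heart and 1.31 in TA. The lowest were Macf1, a giant linker of actin and microtubules, at -1.74 and -1.78, and the tumour suppressor Apc, which binds end-binding proteins, at -2.32 and -2.23. Mapre3 at 3.51 thus stood over 2 log2 units above every other listed protein of its group in heart.

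Of 15 other U5 and tri-snRNP proteins, 2 were at least 2-fold above the median gene in each tissue and none below, with medians of 0.19 and 0.20. Those were Eftud2, the GTPase of U5, at 1.13 and 1.27, and Prpf31 at 1.07 and 1.28. The lowest were Usp39 at -0.34 and -0.33 and Prpf3 at -0.52 and -0.70. No other member differed by 2-fold between the tissues.

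Of 19 other subunits and regulators of cytoplasmic dynein and dynactin, 7 were at least 2-fold above it in heart and 1 below, and 4 were above in TA with none below (medians 0.46 and 0.55). The dynactin subunits Dctn5 (1.73 and 1.56) and Dctn6 (1.51 and 1.80) led. The lowest were the dynactin subunit Actr10 (-1.03 and -0.39) and the dynein regulator Ndel1 (-0.73 and -0.71). Even Dctn5 and Dctn6 were more than 1 log2 unit under Dynll2.

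None of 9 other MICOS and outer membrane partners passed 2-fold in either tissue, in either direction or between tissues (medians 0.31 and 0.08). Immt, the mitofilin core of MICOS, had 906 RPM of RNA in heart and 373 RPM in TA and stood at 0.55 and 0.56, with no tissue difference of the kind seen for Chchd3. Mtx2 was at 0.05 and -0.68 and Apool at -0.96 and -0.53. The largest tissue difference among these partners was 0.93.

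Of 20 other p38 and atypical MAPK genes in heart, 5 were at least 2-fold above the median gene and 3 below, and in TA 2 of 19 were above and 3 below (medians 0.29 and -0.15). Hspb1, a small heat shock protein phosphorylated in the p38 pathway, stood at 1.73 and 2.44, and the transcription factor Foxo3 at 1.72 and 1.46. Map3k7, the kinase TAK1, was low at -1.32 and -1.55. Mapk6, which encodes ERK3 and so an activator of MK5, was lowest at -4.46 in heart and -2.99 in TA, with 1.70 RPM of RPF against 53.6 RPM of RNA in heart. Its tissue difference of -1.47 was opposite in sign to that of Mapkapk5, and no other gene of this list passed 2-fold between the tissues.

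The genes most like each mRNA were found by the distance between their 4 coding values on the log2 scale after the mean of each gene was taken off, over genes whose RNA was 10 RPM or more in heart and in TA. A pattern over 4 libraries is a coarse measure of likeness. Efficiency is made from the same 4 values, so like efficiencies follow from this choice and are given as descriptions. Ywhag, a 14-3-3 protein, and Pcbp1, an RNA-binding protein, were nearest to Mapre3 at distances of 0.42 and 0.53, where the median of 5700 genes was 3.79. Ptrf (cavin-1) and Ptma (prothymosin alpha) were nearest to Dynll2 at 0.28 and 0.48 (median 3.60). Cox17, a copper chaperone of cytochrome oxidase, and Anp32a were nearest to Txnl4a at 0.37 and 0.53 (median 3.31). In heart the efficiencies of these 6 genes ranged from 2.90 (Ptma) to 3.97 (Ywhag). Rpl22, a ribosomal protein, and 2400001E08Rik were nearest to Chchd3 at 0.37 and 0.40 (median 1.98). Both were above the median gene in heart, at 1.48 and 1.51, and below it in TA, at -0.32 and -0.53. Pcbp4, an RNA-binding protein, and the ribosomal protein Rps4x were nearest to Mapkapk5 at 0.48 and 0.61 (median 2.10), with -0.80 and -0.55 in heart and -2.52 and -1.90 in TA.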

How the data were processed

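The labels describe RPF and RNA reads mapped to RefSeq transcripts, and the submitters' processing notes name Bowtie and mm9; trimming, versions and the treatment of multiple matches are not stated. The authors deposited RPM values (RPFM and RNAM, per the file headers) for 3 parts of 1 transcript model per gene, not divided by length. Deposited coding lengths were 6 nt shorter than GENCODE's in 99.0% of 10709 matched rows.

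The worth of 1 read was found from the steps of low values. In every library 100% of 8204 to 15302 low values lay within 0.005 RPM of a whole number of reads (steps 0.0354, 0.107, 0.035 and 0.0621 RPM). Values have 2 decimals, coarse beside an RPF step, which makes RPF reads approximate. No count test could be fitted, because no group has a second library. Symbols on several rows (5 in heart, 4 in TA) kept the highest row.

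The 5 mRNAs, 6 gene lists and the rule for named genes were chosen with earlier results of these data known. Named were the 5, their 7 relatives, the 2 highest and 2 lowest of each list by mean efficiency over both tissues, and the 2 genes most like each mRNA. Lists are described by counts and medians, with no set test. Efficiencies, log2 ratios of coding values and the 2-fold calls had 0.1 RPM added, which understates changes of low genes. Printed ratios of RPF to RNA, heart to TA ratios of RNA or RPF, and UTR densities had nothing added. No coordinates are given because the reference is GRCm38. Sequences were not printed for chromosome 18. Scripts ran in Python 3.11.15 (scipy 1.17.1, numpy 2.4.6, pandas 2.3.3, matplotlib 3.10.9) and were first tested on simulated data.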

Additional observations from a re-analysis of the deposited data

Results flagged for a closer look

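Among 40 named genes, 3 had an efficiency above the median gene in heart and below it in TA with both counting intervals clear of 0. Chchd3 stood at 1.75 in heart and -0.56 in TA. Rpl22 stood at 1.48 and -0.32, and 2400001E08Rik at 1.51 and -0.53. The last 2 were named because their pattern is like that of Chchd3. The 40 were chosen genes and the share of all genes with this pattern was not counted, so how unusual it is cannot be said. With 1 library per group the difference between tissues was not tested.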

How the results depend on the processing

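The counts of the 5 mRNAs past 2-fold in efficiency or RPF stayed within 1.5 times under each alternative run (another pseudocount, minimum, scale, choice of rows, centring, removal of the trend with coding length, all 3 parts summed, and, chosen after seeing the data, RNA per kilobase of all 3 parts). The count past 2-fold in RNA, 1 as reported, was 0 with all 3 parts summed, 0 when centred on the median gene and 0 without the 50 most abundant genes. Chchd3 RNA, heart over TA, turned from 0.53 to -0.17 when centred and to -0.063 without those genes. Mapkapk5 efficiency in heart turned from -0.22 to 0.40 with all 3 parts summed and to 0.18 with RNA per kilobase of all 3 parts. With the parts summed, where long 3-prime UTRs weigh on RNA, Dynll2 fell to 1.81 in heart and 1.26 in TA and Txnl4a to 2.52 and 1.24. With the length trend taken off, Dynll2 was at 2.41 and 2.49 and Txnl4a at 2.78 and 1.77. Over all alternatives Mapre3 ranged from 3.07 to 3.80 in heart. The efficiency difference of Txnl4a ranged from 0.89 to 1.35, below 2-fold at its lowest, without centring. That of Dynll2 ranged from -0.18 without centring to 0.56 with all 3 parts summed. Over all genes, 1710 in heart and 1548 in TA were at least 2-fold above the median gene. Without centring, 2-fold is counted from equal RPF and RNA, and 852 and 1022 genes were above it. In heart 3182 genes were then at least 2-fold below, against 1905 below the median gene as reported. Differences past 2-fold numbered 392 higher and 225 lower in heart as reported, 226 and 462 without centring, and 241 and 114 at a minimum of 5 RPM. With a pseudocount of 1 RPM, 143 were lower. RNA ratios past 2-fold were 3448 higher and 382 lower as reported, 1332 and 1026 centred, and 1574 and 874 without the 50 most abundant genes. RPF ratios were 2961 and 498, then 1176 and 1185, and 1357 and 1058. No paired analysis was possible because each group has 1 library.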
